A study of Mus musculus with 14 samples.

Results

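Genes that build and load the molecules of antigen presentation were examined in whole eyes of newborn mice lacking Snf2h or Brg1. They comprise 10 genes chosen by name, 5 class II genes (H2-Aa, H2-Ab1, H2-Eb1, H2-DMa and Cd74) and 5 class I pathway genes (B2m, Tap1, Tap2, Psmb8 and Psmb9). Every probe set that the array annotation assigns to 1 of them was kept, which gave 17 probe sets, 8 for class II and 9 for class I, of 20380 probe sets for 12393 genes in all. All 10 genes matched the RefSeq gene table by gene ID, and 0 symbols changed.

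MHC class II molecules are pairs of an alpha and a beta chain that show peptides from engulfed protein to helper T cells. They are assembled with the invariant chain Cd74 and loaded in endosomes with the help of DM, and in most tissues they mark professional antigen-presenting cells such as dendritic cells, macrophages and B cells. MHC class I molecules, which most nucleated cells carry, pair a heavy chain with B2m and show peptides that the proteasome cuts and the TAP transporter carries into the endoplasmic reticulum. Interferon gamma induces both pathways, class II through the transactivator Ciita and class I partly through exchange of proteasome subunits for Psmb8 and Psmb9. The newborn eye holds few antigen-presenting cells, mainly macrophages and microglia.

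The 14 arrays fall into 4 groups in 2 experiments, all of total RNA from eyeballs at postnatal day 1. Snf2h cKO eyes (4 arrays) came from pups with a lens-conditional knockout of Snf2h, the ISWI ATPase encoded by Smarca5, on C57BL/6, and were set against wildtype C57BL/6 eyes (4 arrays). Brg1 cKO eyes (3 arrays) came from pups with a conditional knockout of Brg1, the SWI/SNF ATPase encoded by Smarca4, on a mixed background, and were set against wildtype eyes of that background (3 arrays). The labels name no Cre driver, leave unnamed the cells that lost Brg1, and do not give the number of animals behind a sample, so p-values measure the spread between these samples, which may be technical. In RNA from whole eyes, fewer cells of a type and less RNA per cell cannot be told apart.

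The arrays had median intensities of 100.8 to 113.6, and markers of the eye were present, with summed intensities of 12153 to 69866 over 10 lens genes and 9903 to 17646 over 10 retina genes. The deleted genes did not pass the test in their own comparison: the Smarca5 probe sets gave log2 differences of −0.50, −0.19 and 0.31 in Snf2h cKO eyes (lowest adjusted p = 0.188 by limma), and the Smarca4 probe sets gave 0.05 and −0.74 in Brg1 cKO eyes (lowest adjusted p = 0.579). Some arrays stood apart. Snf2h cKO replicates 1 and 2 were near-identical, with an SD of their log2 difference of 0.217, against 0.419 to 0.723 for the other pairs within a group. The 3′ minus 5′ difference of Gapdh, a sign of RNA quality, was 0.77 to 0.99 in Snf2h cKO arrays, against 1.09 to 1.46 in 3 Snf2h wildtype arrays and 4.47 in Snf2h wildtype replicate 3. In the Brg1 experiment this difference was 0.63 to 0.96 in cKO arrays and 0.68 to 0.74 in wildtype arrays. Brg1 cKO replicate 2 stood apart in the genes described here and is taken up with them. It also differed over all probe sets, with SDs of 0.694 and 0.641 against replicates 1 and 3, which differed by 0.539. Its median difference from the wildtype mean over 10 retina genes was −0.40, against 0.58 and 0.18 in replicates 1 and 3. Over 8 endothelium genes it was 0.99, against −0.16 and 0.34.

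Of the 10 genes, 8 lie on chromosome 17 in the major histocompatibility complex, in the RefSeq order H2-DMa, Psmb9, Tap1, Psmb8, Tap2, H2-Ab1, H2-Aa and H2-Eb1. B2m is on chromosome 2. The promoters of H2-Aa, H2-Eb1 and B2m and the stretch shared by Psmb9 and Tap1 are shown because the text follows these genes as pathway groups. Of the 10 genes, 7 had an entry in the RefSeq promoter table (GRCm38.p6), and H2-Ab1, Tap2 and Cd74 had none. Capitals mark matches, on either strand, to the letters named with each sequence.

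The 100 bases before the H2-Aa start (chr17:34287824-34287923, minus strand) and the H2-Eb1 start (chr17:34305767-34305866, plus strand) are given with GCAACT, as in the class II X box, and GATTGG, as in the Y box, in capitals:
H2-Aa: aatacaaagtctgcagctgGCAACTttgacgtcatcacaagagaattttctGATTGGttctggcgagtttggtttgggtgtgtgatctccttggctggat
H2-Eb1: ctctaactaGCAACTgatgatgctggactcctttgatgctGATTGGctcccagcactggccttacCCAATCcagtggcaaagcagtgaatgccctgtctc
In H2-Aa the letters GCAACT and GATTGG are 26 bases apart, and in H2-Eb1 they are 25 bases apart, with a further GATTGG on the opposite strand. GCAACT followed by GATTGG on 1 strand, 20 to 40 bases apart, was in the 250 bases before the start in 23 of 32851 promoters (0.07%). GCAACT alone was in 9.01%. The class II gene H2-DMa held neither GCAACT nor the pair in the 250 bases before any of its listed starts. These letters were chosen after these promoters had been read, and a match describes letters, not binding.

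The 150 bases before the B2m start (chr2:122147537-122147686, plus strand) are given with GAAANNGAA, as in interferon regulatory factor sites, GGANNNTCC, as in NF-kappaB sites, and GATTGG in capitals. The first and the second stretch of capitals are the matches to GAAANNGAA and GGANNNTCC:
B2m: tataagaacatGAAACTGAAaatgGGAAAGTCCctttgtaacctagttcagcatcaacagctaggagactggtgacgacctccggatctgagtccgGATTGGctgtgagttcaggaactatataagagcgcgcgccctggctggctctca
GAAANNGAA was in 7.13% of all promoters, GGANNNTCC in 7.27% and GATTGG in 14.6%. Psmb9 and Tap1 are transcribed away from each other, and the 225 bases between their starts (chr17:34187331-34187555, shown on the plus strand, on which Tap1 lies) are given with GGGCGG, a GC box, and GATTGG in capitals:
Psmb9 to Tap1: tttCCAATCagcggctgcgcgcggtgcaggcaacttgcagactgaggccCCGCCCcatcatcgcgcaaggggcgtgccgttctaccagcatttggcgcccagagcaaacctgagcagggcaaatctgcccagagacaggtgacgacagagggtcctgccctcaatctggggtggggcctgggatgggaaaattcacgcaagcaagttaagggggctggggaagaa
The stretch between Psmb9 and Tap1 also holds GCAACT, which is left in lower case here. GGGCGG was in 32.7% of all promoters, and the 250 bases before the Tap1 and Psmb9 starts held no GAAANNGAA. These letters, too, were settled after the promoters had been read.

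No class II gene passed the test in Brg1 cKO eyes, though all 8 class II probe sets had higher means there than in Brg1 wildtype eyes. Their log2 differences ran from 0.27 to 1.24, with a median of 0.82. In 4 of the 8, all of H2-Aa or H2-Ab1, every Brg1 cKO array lay above every wildtype array. Over all 20380 probe sets, 49.1% had a higher mean in Brg1 cKO eyes, the median difference was −0.01, and 7.23% had groups that did not overlap with Brg1 cKO higher (6.2% with Brg1 cKO lower).

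H2-Aa encodes the alpha chain of the class II molecule I-A. Its probe set 1435290_x_at had log2 intensities of 4.25, 4.98 and 4.95 in Brg1 cKO arrays 1 to 3, against 3.65, 3.26 and 3.92 in Brg1 wildtype arrays. The groups did not overlap, and Brg1 cKO replicate 1 was nearest to the wildtype arrays. The difference was 1.12 ± 0.27 (SE), or 2.17-fold, with an adjusted p of 0.204 by limma, so it did not pass. Its other probe set, 1452431_s_at, read 3.52, 5.96 and 4.75 in Brg1 cKO arrays, against 3.63, 2.98 and 3.91 in wildtype arrays. Here replicate 1 lay within the wildtype values, and the difference of 1.24 ± 0.57 had an adjusted p of 0.651. The endings _s_at and _x_at mark probe sets whose probes can also match related transcripts, which matters for genes as alike as these.

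H2-Ab1, the beta chain that pairs with H2-Aa, had 3 probe sets, and in each of them every Brg1 cKO array exceeded every Brg1 wildtype array. Probe set 1450648_s_at read 6.57, 6.02 and 5.83 in Brg1 cKO arrays, against 5.37, 4.81 and 5.77 in wildtype arrays, a difference of 0.82 ± 0.30 (adjusted p = 0.516). For 1451721_a_at the values were 5.51, 5.17 and 4.94 in Brg1 cKO arrays and 4.35, 4.12 and 4.71 in wildtype arrays, a difference of 0.81 ± 0.23 (adjusted p = 0.31). Replicate 1, not replicate 2, was the highest Brg1 cKO array in both. The dim 1425477_x_at gave 3.94 ± 0.12 in Brg1 cKO and 3.43 ± 0.21 in wildtype eyes (SD, n = 3 each), and its difference of 0.51 ± 0.18 did not pass by limma (adjusted p = 0.504).

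Cd74, the invariant chain that escorts class II molecules to endosomes, read 5.66, 7.61 and 6.37 in Brg1 cKO arrays, against 5.54, 5.30 and 5.80 in Brg1 wildtype arrays. Replicate 2 was far above the wildtype values and replicate 1 lay among them, so the groups overlapped. The difference was 1.0 ± 0.45, or 2-fold (adjusted p = 0.643 by limma). H2-Eb1, the beta chain of the class II molecule I-E, read 5.39, 4.87 and 4.64 in Brg1 cKO arrays and 4.71, 4.53 and 4.22 in wildtype arrays (0.48 ± 0.24, adjusted p = 0.707). Replicate 3 fell below the highest wildtype array. H2-DMa, a chain of the peptide exchanger DM, ranged from 5.14 to 6.40 in Brg1 cKO arrays and from 5.31 to 5.98 in wildtype arrays, and its 95% interval of the difference, −0.54 to 1.08, held 0.

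**Figure D1:**
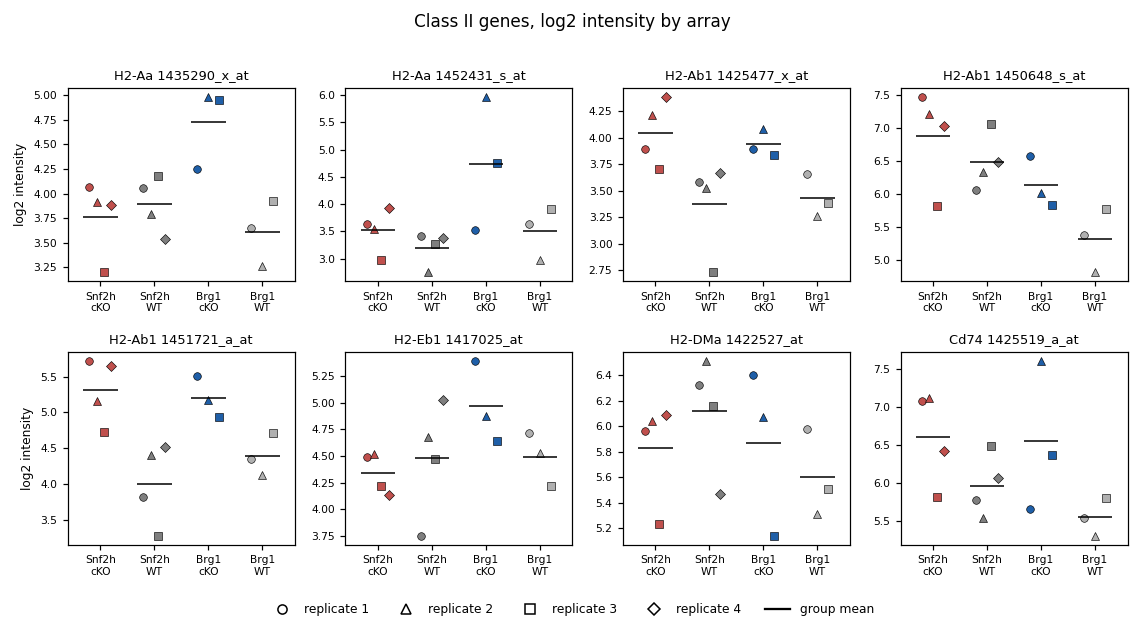
Log2 intensity of the 8 class II probe sets on each of the 14 arrays, with 1 panel per probe set, 1 column of points per group, symbols for replicates and a bar for the group mean; each panel has its own vertical scale. All 3 Brg1 cKO points lie above all 3 Brg1 wildtype points for H2-Aa 1435290_x_at and the 3 H2-Ab1 probe sets, while Cd74 spans 5.66 to 7.61 in Brg1 cKO arrays.

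In Snf2h cKO eyes the class II genes gave a mixed picture, with 5 of 8 probe sets higher and 3 lower than in Snf2h wildtype eyes and a median of 0.36. H2-Ab1 had the largest differences of the 8. Probe set 1451721_a_at read 5.72, 5.16, 4.73 and 5.65 in Snf2h cKO arrays, against 3.81, 4.40, 3.27 and 4.52 in Snf2h wildtype arrays. All cKO arrays were above all wildtype arrays, by the least in replicate 3. The difference was 1.31 ± 0.31, or 2.49-fold, with an adjusted p of 0.115 by limma, and with the near-identical replicates 1 and 2 averaged the lowest adjusted p of any of the 17 probe sets was 0.282.

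The second H2-Ab1 probe set without overlap, 1425477_x_at, read 3.89, 4.21, 3.70 and 4.38 in Snf2h cKO arrays and 3.58, 3.52, 2.73 and 3.67 in Snf2h wildtype arrays (0.67 ± 0.24, adjusted p = 0.209). The brightest one, 1450648_s_at, did overlap, with 7.47, 7.22, 5.81 and 7.04 in Snf2h cKO arrays, against 6.06, 6.34, 7.07 and 6.49 in wildtype arrays (0.39 ± 0.35, adjusted p = 0.577). The probe sets of this gene therefore differed in size though not in sign. Snf2h wildtype replicate 3, the array with the Gapdh difference of 4.47, was the lowest wildtype array for 1451721_a_at and 1425477_x_at. It was the highest for 1450648_s_at. Without this array 2 of the 17 probe sets were higher in every cKO array (7.81% of all), and the lowest adjusted p of the 17 was 0.172 by limma. Snf2h cKO replicate 3 was the lowest of its group in 12 of the 17 probe sets and the highest in 0.

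Cd74 read 7.08, 7.12, 5.81 and 6.42 in Snf2h cKO arrays and 5.77, 5.54, 6.49 and 6.06 in Snf2h wildtype arrays, a difference of 0.64 ± 0.31 (adjusted p = 0.313 by limma). The near-identical pair gave its 2 highest values, and the groups overlapped. For H2-Aa the 2 probe sets had opposite signs, −0.13 ± 0.22 and 0.32 ± 0.23. H2-Eb1 and H2-DMa were at −0.14 ± 0.25 and −0.29 ± 0.26, and neither passed. In all, 0 of the 17 probe sets passed in the Snf2h comparison, in which 0 of 20380 probe sets (0%) passed, and 2 of 17 had higher values in every cKO array. At an unadjusted p under 0.05 the same 2 passed, against 2065 higher and 1545 lower of all probe sets. The share of all probe sets without overlap was 6.52% with Snf2h cKO higher and 4.17% with Snf2h cKO lower.

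In the class I pathway, 1 array stood above the rest of the Brg1 cKO group. All 9 probe sets had higher means in Brg1 cKO than in Brg1 wildtype eyes, with differences of 0.11 to 0.66 and a median of 0.32, but in 0 of 9 were the groups separate. Brg1 cKO replicate 2 was the highest of its group in 8 of the 9, in some by little. B2m 1449289_a_at read 11.87 there and 11.67 in replicate 3, and Tap1 1448177_at 5.21 there and 5.07 in replicate 1. The lowest adjusted p among them was 0.782 by limma.

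Tap1 and Tap2 form the TAP transporter. Tap1 1416016_at read 5.91, 7.61 and 6.00 in Brg1 cKO arrays, against 5.99, 5.78 and 5.79 in Brg1 wildtype arrays. Replicate 2 exceeded the wildtype mean by 1.76, whereas replicates 1 and 3 read close to it. The difference between the groups was 0.65 ± 0.43 (adjusted p = 0.782). Tap2 read 5.60, 6.62 and 5.02 in Brg1 cKO arrays and 5.13, 5.31 and 5.50 in wildtype arrays (0.43 ± 0.38, adjusted p = 0.83), again with replicate 2 highest and replicate 3 below all wildtype arrays. The other 3 Tap1 probe sets were dimmer, with 4.38 to 5.37 for 1448177_at, 1.63 to 2.42 for 1420274_at and 1.88 to 3.43 for 1449803_x_at over all 14 arrays, and their differences were 0.11 to 0.32.

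Psmb8 and Psmb9 are catalytic subunits of the immunoproteasome. Psmb8 read 5.74, 7.78 and 6.20 in Brg1 cKO arrays, against 5.60, 5.94 and 6.19 in Brg1 wildtype arrays (0.66 ± 0.49, adjusted p = 0.798 by limma). Psmb9 read 5.03, 6.90 and 5.54 in Brg1 cKO arrays, against 5.03, 5.42 and 5.06 in wildtype arrays (0.65 ± 0.44, adjusted p = 0.784). Replicate 2 exceeded the wildtype mean by 1.87 for Psmb8 and 1.73 for Psmb9, and the groups overlapped. B2m, the light chain of class I molecules, read 11.03, 11.87 and 11.67 in Brg1 cKO and 11.10, 11.10 and 11.57 in wildtype arrays with 1449289_a_at (0.27 ± 0.26, adjusted p = 0.851), and its other probe set, 1452428_a_at, gave the same difference.

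Across all 17 probe sets the Brg1 comparison called 0, against 0.623% of all probe sets, with 17 of 17 positive, a median of 0.51 and a lowest adjusted p of 0.204. At an unadjusted p under 0.05, 4 probe sets passed, all of class II and higher, against 905 higher and 751 lower of all 20380 probe sets. Without Brg1 cKO replicate 2 the median was 0.22, 16 of 17 were positive, 5 had groups without overlap (13.1% of all probe sets with Brg1 cKO higher), and the lowest adjusted p was 0.353. Without replicate 1 the median was 0.53 and 11 were without overlap (11.9% of all with Brg1 cKO higher), and without replicate 3 the median was 0.79 and 8 were without overlap (14.6% of all). On simulated data for this comparison, 14% of 50 probe sets changed by a log2 of 1 were called and 88% of 50 changed by 2. The simulated noise took the SD of each probe set pooled over all 4 groups, so these shares need not hold for the spread of the Brg1 arrays.

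In Snf2h cKO eyes 4 of the 9 class I pathway probe sets were higher than in wildtype eyes, with a median of −0.07 and differences of −0.33 to 0.19. Tap1 1416016_at read 6.00, 5.92, 5.86 and 6.00 in Snf2h cKO arrays, against 5.98, 6.22, 6.72 and 6.21 in Snf2h wildtype arrays, a difference of −0.33 ± 0.17 (adjusted p = 0.33 by limma). The cKO arrays ranged from 5.86 to 6.00, and wildtype replicate 3 was the highest. B2m 1449289_a_at was 10.35 ± 0.14 in Snf2h cKO and 10.42 ± 0.13 in wildtype eyes (SD, n = 4 each), with a 95% interval of the difference of −0.37 to 0.23. For Psmb8 the interval was −0.34 to 0.46 and for Psmb9 −0.17 to 0.52, and none of these genes passed.

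**Figure D2:**
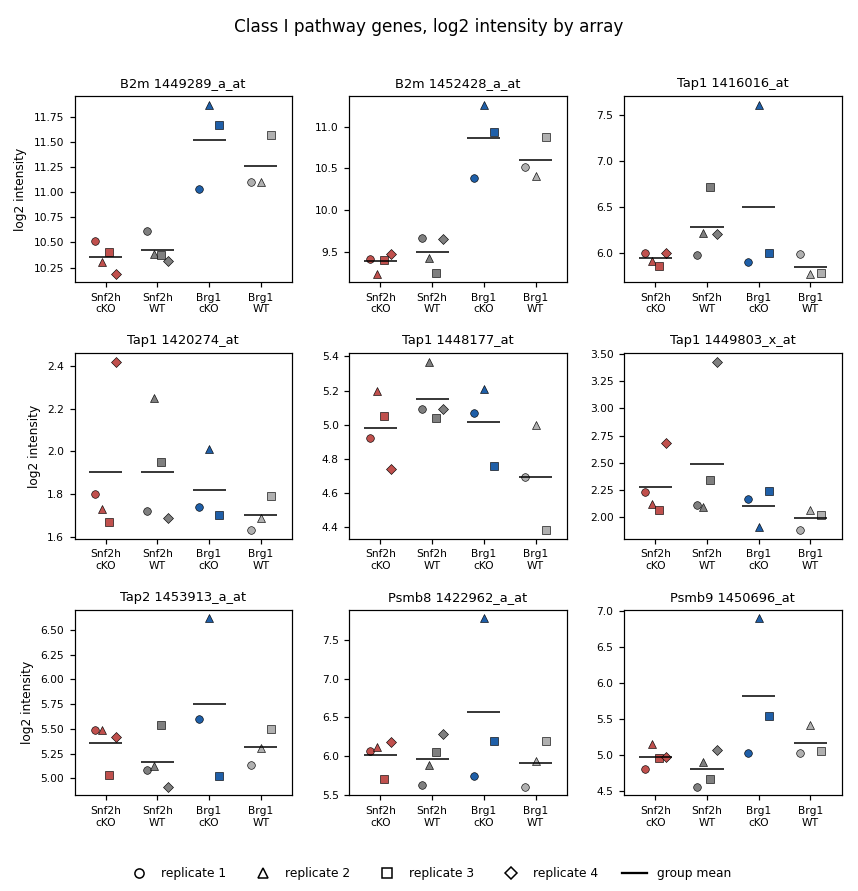
Log2 intensity of the 9 class I pathway probe sets on each of the 14 arrays, drawn as for the class II genes, with a vertical scale per panel. Brg1 cKO replicate 2 (triangle) is the highest Brg1 cKO array in 8 of 9 panels, and both B2m panels show all Brg1 wildtype arrays above all Snf2h wildtype arrays.

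A contrast over all 14 arrays took the Brg1 effect minus the Snf2h effect. It was positive in 15 of 17 probe sets, with a median of 0.43 against 0.02 over all probe sets, and 0 of 17 passed, against 0.687% of all (at an unadjusted p under 0.05, 2 of 17, both positive, against 1238 positive and 1320 negative of all 20380). H2-Aa 1435290_x_at gave 1.25 ± 0.36 (adjusted p = 0.165 by limma) and Tap1 1416016_at 0.99 ± 0.45 (adjusted p = 0.388). The 2 negative values were those of H2-Ab1 1425477_x_at (−0.17 ± 0.32) and 1451721_a_at (−0.50 ± 0.44), with adjusted p of 0.868 and 0.67. Without Brg1 cKO replicate 2, 12 of 17 were positive, and Cd74, Tap2 and Psmb9 turned to −0.17, −0.20 and −0.06. With array weights 12 of 17 were positive too.

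Between the wildtype groups, B2m was higher in mixed-background than in C57BL/6 eyes. Probe set 1449289_a_at read 11.10, 11.10 and 11.57 in mixed-background wildtype arrays, against 10.61, 10.38, 10.37 and 10.32 in C57BL/6 wildtype arrays, without overlap. It was higher by 0.83 ± 0.18, or 1.78-fold (adjusted p = 0.00804 by limma). Probe set 1452428_a_at read 10.51, 10.41 and 10.88 in mixed-background arrays, against 9.67, 9.43, 9.25 and 9.65 in C57BL/6 arrays, and was higher by 1.10 ± 0.19, or 2.14-fold (adjusted p = 0.0031). These 2 are also the only ones of the 17 probe sets at or above the median probe set level of 6.87.

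H2-Ab1 1450648_s_at was lower in mixed-background eyes, with 5.37, 4.81 and 5.77, against 6.06, 6.34, 7.07 and 6.49 in C57BL/6 eyes (−1.17 ± 0.29, adjusted p = 0.0145 by limma). No array overlapped. The other H2-Ab1 probe sets did not go the same way, with differences of 0.06 ± 0.25 and 0.39 ± 0.31 that did not pass, so the direction for this gene depends on the probe set. Without mixed-background wildtype replicate 2 the first had −0.92 and an adjusted p of 0.052. H2-DMa, at −0.52 ± 0.28 (adjusted p = 0.179), passed at −0.73 (adjusted p = 0.0355) without C57BL/6 wildtype replicate 4.

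Of the 17 probe sets, 2 were called higher and 1 lower, where 35.7% of all probe sets were called, 18% higher and 17.7% lower. Groups did not overlap in 2 higher and 3 lower probe sets, against 44.5% of all in either direction. Strain and experiment cannot be told apart in this comparison, and it shares its arrays with both knockout comparisons.

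**Figure D3:**
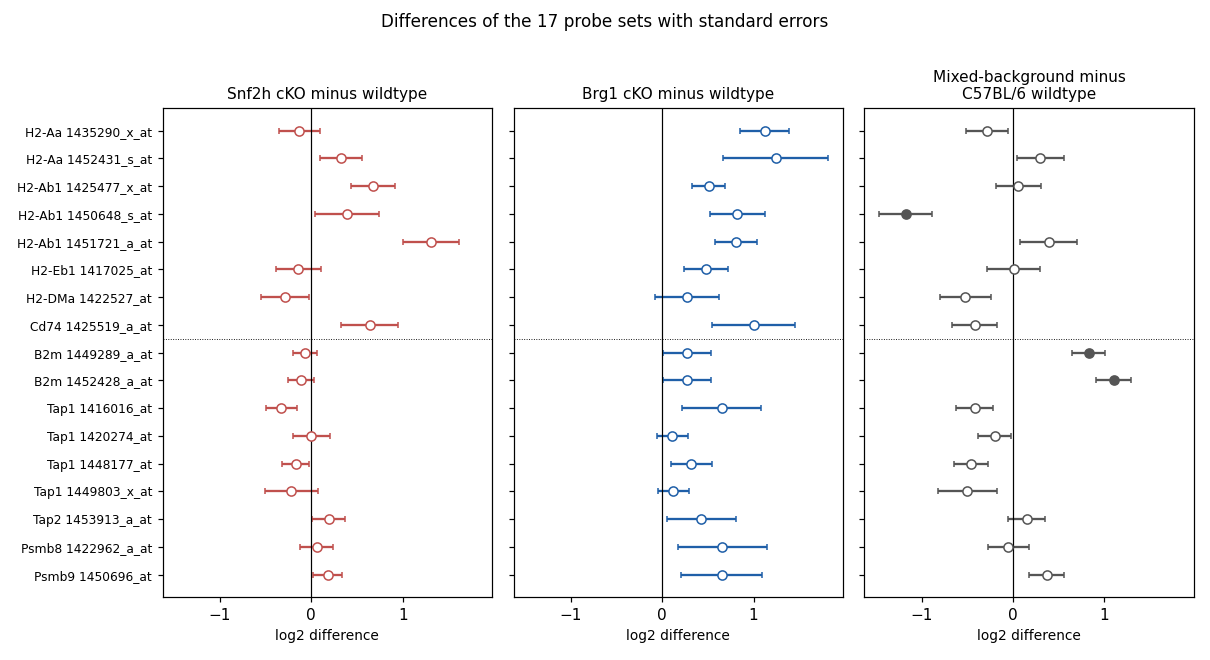
Log2 difference of each of the 17 probe sets (points) with its standard error (bars) in 3 comparisons, class II above and class I pathway below the dotted line; filled points passed at an adjusted p under 0.05. All 17 points are above 0 for Brg1 cKO, none is filled in either knockout comparison, and the filled points in the wildtype comparison are both B2m probe sets and H2-Ab1 1450648_s_at.

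The remaining genes of these pathways were taken from lists, 1 probe set a gene, the brightest. In the Brg1 comparison 0 of 8 class II chain genes, 0 of 11 class I heavy chain genes, 0 of 9 peptide loading genes, 0 of 5 immunoproteasome genes and 0 of 14 constitutive proteasome genes passed. Medians were 0.37, 0.23, 0.27, 0.41 and −0.08 in that order. Psmb10, the other inducible catalytic subunit, read 7.38, 9.37 and 7.31 in Brg1 cKO arrays, against 7.33, 7.88 and 7.61 in wildtype arrays, with replicate 2 alone above them. Erap1, which trims peptides in the endoplasmic reticulum, gave 0.51 ± 0.27 (adjusted p = 0.732 by limma), and the chaperones Canx and Calr both gave −0.24 (adjusted p = 0.768 and 0.825). Psmb2, a beta subunit of the proteasome core, read 9.73, 9.59 and 10.41 in Brg1 cKO arrays, against 10.65, 10.50 and 10.60 in wildtype arrays (−0.67 ± 0.24, adjusted p = 0.508), and gave 0.72 ± 0.28 in Snf2h cKO eyes (adjusted p = 0.231). In the Snf2h comparison 0 genes of these lists passed, with medians of 0.02, 0.09, −0.04, 0.24 and 0.18.

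Endosomal proteases prepare peptides and trim Cd74 for class II loading. In Brg1 cKO eyes 8 of 9 were higher, with a median of 0.38, and 0 passed. Ctss (cathepsin S), which cleaves the invariant chain, read 9.39, 10.32 and 9.86 in Brg1 cKO arrays, against 7.67, 8.51 and 8.67 in wildtype arrays. The groups did not overlap, and the difference was 1.57 ± 0.33 (adjusted p = 0.146 by limma). Lgmn, an asparaginyl endopeptidase, gave 0.50 ± 0.16 in Brg1 cKO eyes (adjusted p = 0.383) and 1.16 ± 0.28 in Snf2h cKO eyes (adjusted p = 0.118). Ctsh and Ctsb gave −0.56 ± 0.25 and 0.46 ± 0.22 in Brg1 cKO eyes.

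Regulators of these genes were measured too, with 0 of 11 past the test in either knockout comparison. Ciita, the class II transactivator, had dim probe sets, and 1421210_at read 3.42, 3.30 and 2.65 in Brg1 cKO arrays, against 3.55, 3.67 and 3.52 in wildtype arrays. Its difference was −0.46 ± 0.23 (adjusted p = 0.706 by limma), of the opposite sign to the class II probe sets, and 1421211_a_at gave −0.05 ± 0.18. Irf1, an interferon-induced factor, gave 0.30 ± 0.27 (adjusted p = 0.837), with 7.38 in Brg1 cKO replicate 2, against 6.42 and 6.52 in the other Brg1 cKO arrays and 6.36 to 6.58 in Brg1 wildtype arrays. Irf8, a factor of the myeloid lineage, gave 0.80 ± 0.23 without overlap (adjusted p = 0.343), Creb1 0.53 ± 0.22 and Nfya, a subunit of the factor that binds the Y box, 0.43 ± 0.20. Nlrc5 had no probe set assigned to it alone.

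Genes of the interferon pathways were set beside these values. Among 17 interferon gamma genes 15 were higher in Brg1 cKO eyes, with a median of 0.90 and 0 calls. The median difference from the wildtype mean was 0.33, 2.36 and 0.24 in Brg1 cKO arrays 1 to 3. Cxcl10, a chemokine, gave 3.09 ± 0.65 (adjusted p = 0.14 by limma), with 5.15, 8.06 and 6.42 in Brg1 cKO arrays and 3.11, 3.55 and 3.69 in wildtype arrays. The guanylate-binding Gbp3 and Gbp2 and the GTPase Igtp gave 1.84 ± 0.67, 1.90 ± 0.72 and 1.55 ± 0.66, each with replicate 2 highest (6.04, 7.94 and 8.90).

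Among 20 genes of the type I interferon response, all 20 were higher in Brg1 cKO eyes, with a median of 1.82, 16 without overlap and 1 call. The called gene was Mx1, an antiviral GTPase, at 7.15, 8.14 and 7.49 in Brg1 cKO arrays, against 3.85, 3.86 and 4.33 in wildtype arrays (3.58 ± 0.28, adjusted p = 0.0044 by limma). Oas2 and Oasl1, of the oligoadenylate synthetase family, gave 1.16 ± 0.20 and 3.43 ± 0.59, and Rsad2, which encodes viperin, 3.57 ± 0.66, with adjusted p of 0.0675, 0.0711 and 0.0911. Array medians were 0.88, 3.33 and 1.51 above the wildtype mean. In Snf2h cKO eyes 17 of the 20 were lower, with a median of −0.27 and 0 calls, and 5 of 20 passed in the test of the difference between the knockout effects.

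Most macrophage and neutrophil markers were also higher in Brg1 cKO eyes. Over 19 macrophage and microglia genes, summed intensities were 4141 to 8354 in Brg1 cKO arrays, against 2699 to 3786 in Brg1 wildtype arrays, and 17 of 19 were higher, with a median of 0.57 and 0 calls. Ptprc, the pan-leukocyte CD45, gave 2.44 ± 0.44 (adjusted p = 0.0889 by limma) and Tyrobp 1.53 ± 0.39. P2ry12, of the same list, went the other way, at −0.76 ± 0.21 (adjusted p = 0.297). Cx3cr1 and Cd163 gave 0.02 ± 0.33 and 0.00 ± 0.58. Over 14 neutrophil genes the sums were 4540 to 14814 in Brg1 cKO arrays and 406 to 764 in wildtype arrays. In Brg1 cKO arrays S100a9 (11.50, 13.01 and 11.68) and S100a8 (10.08, 12.01 and 10.23) were the brightest of the list and made up most of each sum. Of the 14, 11 were higher, with a median of 0.99, and 3 lower, Ltf at −0.47, Mpo at −0.01 and Elane at −0.02. The 3 called were Fpr2, S100a9 and S100a8 (5.15 ± 0.42, 4.48 ± 0.41 and 5.01 ± 0.54). Macrophage and neutrophil medians were 0.35 and 0.38 in replicate 1, 1.22 and 2.50 in replicate 2, and 0.67 and 0.61 in replicate 3. How far these markers reflect numbers of such cells was not tested, nor was the part of such cells in the values of the antigen presentation genes.

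Lists of other antigen-presenting and lymphoid cells had medians near 0 in Brg1 cKO eyes, at 0.06 over 15 dendritic cell and costimulation genes, −0.12 over 12 B cell genes and −0.01 over 14 T and NK cell genes, with 0 calls. Their summed intensities were 757 to 933, 182 to 307 and 280 to 406 in Brg1 cKO arrays, against 980 to 1194, 193 to 278 and 322 to 414 in wildtype arrays. The dendritic cell list holds Epcam, also a surface epithelium gene, which gave −1.11 ± 0.35 (adjusted p = 0.404 by limma). Without it, a choice made after the values were seen, the sums overlapped, at 647 to 703 in Brg1 cKO arrays and 632 to 720 in wildtype arrays. Itgax, the integrin CD11c, gave 1.70 ± 0.28 (adjusted p = 0.0602 by limma). Lens markers were lower in Brg1 cKO eyes, with sums of 12153 to 38690, against 61581 to 69866 in wildtype eyes, and array medians of −2.53, −0.88 and −3.32 in replicates 1 to 3. Replicate 2, which had the highest interferon, macrophage and neutrophil medians, had the smallest lens difference. Whether these values are related was not tested. In the Snf2h experiment the macrophage sums overlapped, with 4553 to 7616 in Snf2h cKO arrays and 4891 to 8614 in wildtype arrays.

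**Figure D4:**
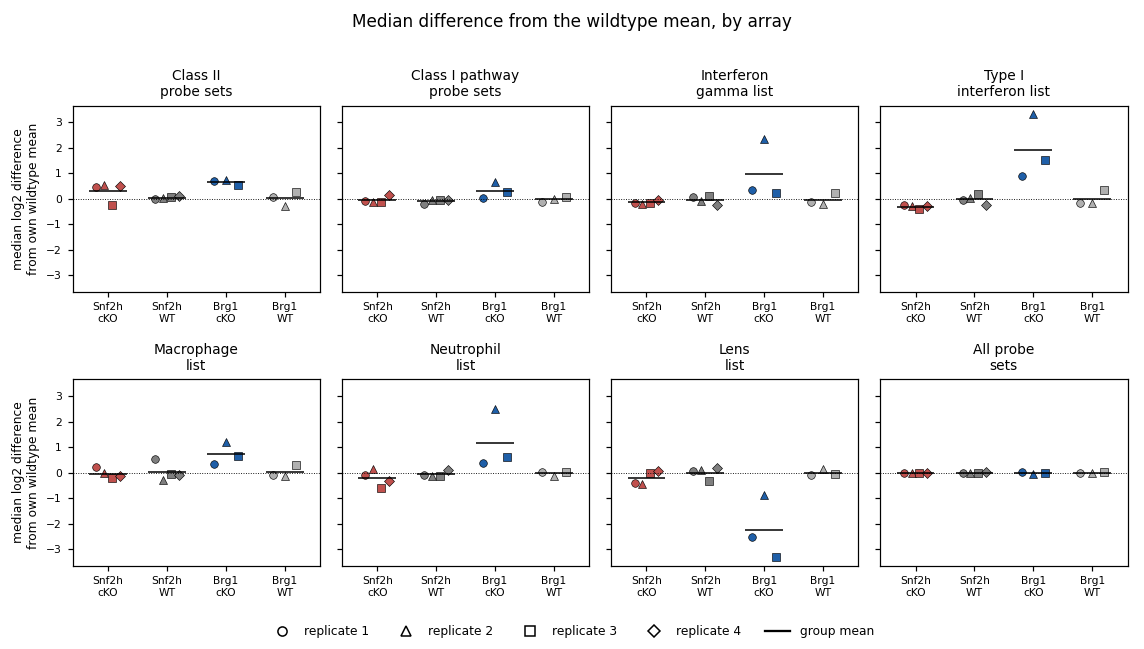
Median log2 difference from the wildtype mean of the same experiment, by array, for the class II and class I pathway probe sets, 5 gene lists and all probe sets, on 1 common scale; bars are group means of these medians. Brg1 cKO replicate 2 (triangle) is at 2.36 and 3.33 for the interferon lists and 2.50 for the neutrophil list, while the class II medians of the 3 Brg1 cKO arrays are close, at 0.72, 0.74 and 0.53.

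The median over the 8 class II probe sets, 3 of them of H2-Ab1, was 0.72, 0.74 and 0.53 above the wildtype mean in Brg1 cKO replicates 1 to 3. Single probe sets varied more, with 0.12, 2.06 and 0.82 for Cd74 and 0.80, 0.47 and −0.46 for H2-DMa. Over the list of 8 class II chain genes, 1 probe set a gene, the medians were 0.38, 0.43 and 0.19. Over the class I pathway the medians were 0.04, 0.66 and 0.25. Whether the pathways differ in this was not tested. In Snf2h cKO arrays the class II median was 0.48, 0.54, −0.24 and 0.50, and the class I pathway median −0.08, −0.11, −0.13 and 0.17.

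Class I heavy chain genes related to B2m varied within groups. H2-K1 1451931_x_at read 6.89, 10.17 and 9.11 in Brg1 cKO arrays, against 6.59, 8.22 and 8.69 in wildtype arrays (0.89 ± 0.86, adjusted p = 0.85 by limma). H2-D1 1425545_x_at read 6.88, 10.42 and 9.37 in Brg1 cKO arrays and 6.70, 8.32 and 8.92 in wildtype arrays, so replicate 1 was low in both groups. In contrast, H2-D1 1452544_x_at read 8.69, 3.92 and 3.51 in Brg1 cKO arrays and 7.92, 3.96 and 3.90 in wildtype arrays, with replicate 1 high in both.

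A split also appeared among the Snf2h wildtype arrays, which carry 1 strain label. H2-D1 1452544_x_at read 4.01, 3.93, 4.20 and 4.31 in Snf2h cKO arrays and 3.77, 8.87, 9.40 and 3.44 in Snf2h wildtype arrays, so wildtype replicates 2 and 3 were high. H2-D1 1425545_x_at read 9.0, 8.93, 8.86 and 9.09 in Snf2h cKO arrays, against 9.13, 7.23, 9.08 and 8.82 in wildtype arrays, low in replicate 2 and not in replicate 3. Of the 4 arrays that were high with 1452544_x_at, 3 were the lowest of all 14 with 1425545_x_at, and the source of the split was not tested. H2-Ea, the I-E alpha chain that mice of the C57BL/6 haplotype do not make, had 3 dim probe sets at 1.72 to 3.59 over all arrays and no calls.

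**Figure D5:**
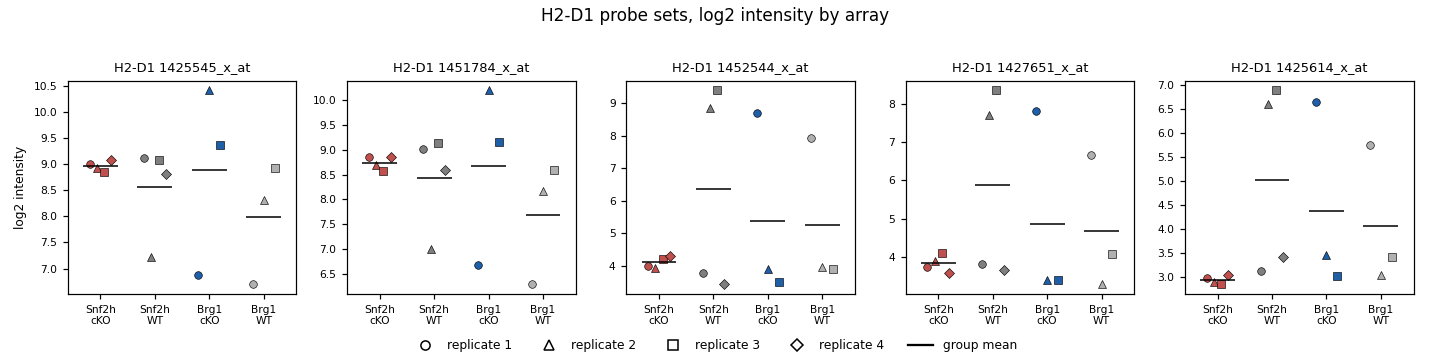
Log2 intensity of the 5 H2-D1 probe sets with the widest range over the arrays, on each of the 14 arrays, with a vertical scale per panel and bars for group means. In the 3 panels on the right Snf2h wildtype replicates 2 and 3 and replicate 1 of both Brg1 groups stand far above the other 10 arrays, and in both panels on the left 3 of these 4 arrays are the lowest.

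The genes most alike across the arrays were found after subtracting the wildtype mean of each experiment, as a description over 14 arrays that share 2 experiments and include Brg1 cKO replicate 2. For the mean of the brightest H2-Aa, H2-Ab1, H2-Eb1 and Cd74 probe sets, Pearson's r was 0.92 for Fermt3, 0.919 for Slc16a3, 0.899 for Smtn, 0.899 for Madcam1 and 0.893 for Cxcl16. For the mean of Tap1, Tap2, Psmb8 and Psmb9 it was 0.959 for Sprr2f, 0.959 for Sertad1, 0.958 for AW112010, 0.954 for Tpbpa and 0.939 for Abca8b.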

How the data were processed

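Probe set values came from 14 single-colour Affymetrix arrays of RNA from eyeballs at postnatal day 1, made, per the labels, from 50 ng of amplified and biotinylated RNA. The authors deposited linear intensity values, and the submitters' processing notes name RMA. The RMA version, and whether both experiments were normalised together, are not given in the sources used here. RMA shrinks differences of dim probe sets, and no detection calls were used. The log2 was taken with no offset. Of 22690 probe sets, 64 controls, 691 with several genes and 1555 with no gene were left out.

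Fits over 20380 probe sets used lmFit and eBayes from limma 3.58.1 under R 4.3.3. Tests were two-sided, and a probe set passed where its p, adjusted after Benjamini and Hochberg, was under 0.05, with moderated standard errors and 95% intervals. The number of arrays limits the precision. The code was tested on simulated data, as given in the text.

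The genes and lists were chosen with earlier results of these data known. All probe sets of the 10 genes were named, together with Ciita, Nlrc5, Irf1, H2-Ea, H2-K1, H2-D1, up to 4 genes with the smallest p in the Brg1 comparison from the lists of antigen presentation, interferon and regulator genes, and the 5 probe sets most alike to each pathway mean. Psmb10, Ifng, Socs1, Ido1, Ptprc, Tyrobp, P2ry12, Cx3cr1, Cd163, Itgax, Ltf, Mpo, Elane and the called neutrophil genes were named after their values were seen. A further gene that the rule lists by symbol, not by its p, is not reported here. Same-numbered arrays did not deviate together in all pairs, so replicate numbers were not taken as pairs. Alternatives were 2 scalings, an offset, a filter on dim probe sets, other sets of probe sets, variance models, array weights, a replicate block, 1 fit over all arrays, the near-identical arrays averaged and each array left out.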

Additional observations from a re-analysis of the deposited data

Results flagged for a closer look

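In the 34 groups of 4 arrays, 5 values stood away from the other 3 arrays of their group by Dixon's criterion, which chance meets in about 1 in 20 groups. In Snf2h cKO replicate 3, H2-DMa 1422527_at was at 5.23 against 5.96 to 6.09 in the other cKO arrays, and Tap2 1453913_a_at at 5.03 against 5.42 to 5.49. In Snf2h cKO replicate 4, the dim Tap1 1420274_at was at 2.42 against 1.67 to 1.80. Among Snf2h wildtype arrays, H2-Ab1 1425477_x_at was at 2.73 in replicate 3 against 3.52 to 3.67, and Tap1 1448177_at at 5.37 in replicate 2 against 5.04 to 5.09.

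For Tap1 1416016_at every Brg1 cKO array lay above its wildtype mean and every Snf2h cKO array below its own. The Brg1 cKO arrays 1 to 3 were at 0.05, 1.76 and 0.15 from that mean, so mainly replicate 2 stood off, and the groups overlapped. In the Snf2h experiment the highest wildtype array was replicate 3 (6.72), the array with the Gapdh difference of 4.47. The difference between the knockout effects was 0.99, and it did not pass (adjusted p = 0.388 by limma).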

How the results depend on the processing

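The number of the 17 probe sets called was 0 in the Brg1 comparison and in the test of the difference between the knockout effects under every alternative run. It was 0 in the Snf2h comparison except with array weights, which called 1 (H2-Ab1 1451721_a_at, adjusted p = 0.0423 by limma). Array weights also called 561 of all 20380 probe sets in that comparison (2.75%), against 0 without them. Between the wildtype groups the number of the 17 called was 3, or 2 to 4 with arrays left out. It was 2 without dim probe sets or with the brightest probe set per gene, which leave fewer of the 17 in the fit. With the replicate number as a block the counts were 0, 0, 3 and 0, and 50 of all probe sets were called in the Brg1 comparison, against 127 without it, and 81 in the test of the difference, against 140; the block changed no call of the 17. The calls over all probe sets in the Brg1 comparison were 16 with an offset of 32, 15 of 10190 without dim probe sets, 280 with 1 fit over all arrays, and 25 to 199 with arrays left out. The median over the 17 probe sets ran from 0.22 to 0.79 in the Brg1 comparison with arrays left out; between the wildtype groups it was −0.23 without Snf2h wildtype replicate 1 and 0.97 over the 2 probe sets left by the dim filter. Of 250 values in the Brg1 comparison 1 turned its sign, and 12 of 301 in the Snf2h comparison. Between the wildtype groups 13 of 267 did so. In the test of the difference between the knockout effects it was 9 of 386, in 6 probe sets, the largest of 0.48 in the main fit. The filter kept 2 of 17 probe sets, so most of these genes are dim.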
